A study of Homo sapiens with 8 samples.

Results

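The 10 genes described here encode feedback regulators of the ERK pathway. They are the dual-specificity phosphatases DUSP1, DUSP4, DUSP5, DUSP6 and DUSP10, the Sprouty genes SPRY1, SPRY2 and SPRY4, and the Sprouty-related genes SPRED1 and SPRED2. They were chosen by symbol from the 16796 genes of the count files, with no measured value in the rule, and all 10 were found and tested. Earlier results of these data were known when the genes were chosen. Messenger RNA was measured in LX-2, a human line derived from hepatic stellate cells and used as a model of liver myofibroblasts. Cells in medium with 5% fetal bovine serum received the solvent DMSO (control) or OSMI-1 at 50 µM (OGTi) for 24 h. OSMI-1 inhibits OGT, the enzyme that modifies nuclear and cytoplasmic proteins with the sugar O-GlcNAc. Each group had 4 libraries from biological replicates, made from polyadenylated RNA with a stranded protocol, and the treated and control libraries of a replicate number were paired. A single cell line and a single dose and time were studied, and the solvent was common to both groups.

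Growth factor receptors pass their signal through RAS and the RAF and MEK kinases to ERK, which enters the nucleus and turns on genes. Among those genes are inhibitors of the pathway itself, so that a rise in ERK activity is followed by a rise in its own brakes. DUSP proteins that act on MAP kinases remove the phosphates that keep ERK, JNK or p38 active, while Sprouty and SPRED proteins act further up, between the receptor and RAF. Transcripts of DUSP6, SPRY4 and SPRY2 are widely read as gauges of ERK output. Messenger RNA levels alone do not give the activity of ERK, which was not measured in these libraries.

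Library totals ranged from 24166756 to 28201215 counts. OGT itself was at 5636 ± 260 normalized counts in the controls and 4146 ± 477 under OGTi (SD, n = 4 each), and OGA, which encodes the opposing hydrolase, was at 3159 ± 423 and 904 ± 85.3. OSMI-1 acts on the OGT protein, so the transcript is no check of inhibition. Of 8 stellate cell and myofibroblast markers, 5 were lower under OGTi by the test used below, as were 24.0% of all genes tested. VIM was abundant in every library. The quiescent-cell marker LRAT and the muscle filament gene DES stayed at 5.75 normalized counts or below and received no adjusted p. The tested leukocyte and macrophage markers summed to 2503 to 4090 in the controls and 5628 to 9405 under OGTi, nearly all from CD68, whereas PTPRC, which defines leukocytes, never passed 11.5. Tested endothelial markers summed to 26.3 to 49.8 in the controls and 5.01 to 10.97 under OGTi, where CDH5 was lower, and the tested epithelial marker KRT7 was at 67.6 to 141 and 32.1 to 77.1. The hepatocyte marker APOA1 was under the filter on low counts (a total of 10), and ALB, TTR and CYP3A4 were not analysed here. In bulk RNA, fewer cells of a type and less RNA per cell cannot be told apart, and the part of these markers in the results below was not tested.

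The promoters of 3 regulators are shown because they belong to the gene that rose most (DUSP6), the Sprouty gene that rose most (SPRY4) and a phosphatase that fell (DUSP1). Each run is the 250 bases before the RefSeq start of the gene on GRCh38.p14, written 5′ to 3′ on the gene's strand, and capitals mark TGACG or its reverse complement, the core of the cyclic AMP response element (CRE).
DUSP6, chr12:89352502-89352751, minus strand: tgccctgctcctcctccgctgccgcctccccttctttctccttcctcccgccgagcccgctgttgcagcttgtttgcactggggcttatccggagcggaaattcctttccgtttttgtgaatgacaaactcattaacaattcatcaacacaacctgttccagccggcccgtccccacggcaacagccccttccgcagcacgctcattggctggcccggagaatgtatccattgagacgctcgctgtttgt
SPRY4, chr5:142324248-142324497, minus strand: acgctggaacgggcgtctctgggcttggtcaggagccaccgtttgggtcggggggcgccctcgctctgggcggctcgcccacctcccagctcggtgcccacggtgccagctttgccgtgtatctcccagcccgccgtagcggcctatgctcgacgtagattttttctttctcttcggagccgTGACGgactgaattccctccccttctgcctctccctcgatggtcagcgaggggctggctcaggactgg
DUSP1, chr5:172771196-172771445, minus strand: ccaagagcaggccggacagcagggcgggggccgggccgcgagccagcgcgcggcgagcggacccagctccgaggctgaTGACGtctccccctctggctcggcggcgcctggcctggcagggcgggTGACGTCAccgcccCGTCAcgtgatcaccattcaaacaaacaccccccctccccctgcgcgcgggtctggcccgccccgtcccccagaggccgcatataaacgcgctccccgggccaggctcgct

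The DUSP1 window held 4 matches to TGACG, read on both strands, at -172, -125, -122 and -111 from the start. The matches at -125 and -122 overlap and together spell the full palindromic element. The SPRY4 window held 1 match, at -68, and the DUSP6 window none. The RefSeq start used for SPRY4 lies inside the gene as GENCODE places it (chr5:142310427-142326455). Its window is therefore not before the GENCODE start. Across the 13 promoters that RefSeq gave for 8 of the regulators, 3 held the CRE core, the remaining case being 1 of the SPRY2 promoters. That motif is found in 21.2% of the 34943 promoters of the table, so its presence in this group is ordinary. The ETS motif CCGGAAG occurred in 1 of the 13, a SPRY1 promoter, against 8.48% of all promoters. None of the 13 held the TEAD motif GGAATG (11.9% of all promoters), the AP-1 motif TGANTCA (6.59%) or the serum response element (1.16%). A missing match says only that these letters were not in the window. No sequence was taken for DUSP4 or DUSP5.

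Whether OGT inhibition changed the transcripts of these feedback genes was asked by comparing OGTi with control libraries in the same replicate pairs. Under OGTi 5 of the 10 regulators rose (DUSP4, DUSP5, DUSP6, SPRY2 and SPRY4), 2 fell (DUSP1 and DUSP10), and 3 did not pass the test (SPRY1, SPRED1 and SPRED2). The test was the DESeq2 Wald test on all genes with replicate number as a block, and a gene was called at a Benjamini-Hochberg adjusted p (q) of 0.05 or lower. OGTi changed much of the transcriptome, so these counts have a high background. Of 14028 genes with a q, 46.6% were called, 22.7% higher and 24.0% lower. In 7 of the 10 regulators the 4 OGTi libraries did not overlap the 4 control libraries, against 40.0% of genes tested. The median log2 fold change was 0.70 over the 10 regulators and 0.00 over all genes. Because the 10 were chosen with earlier results of these data known, these contrasts are only a description.

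**Figure D1:**
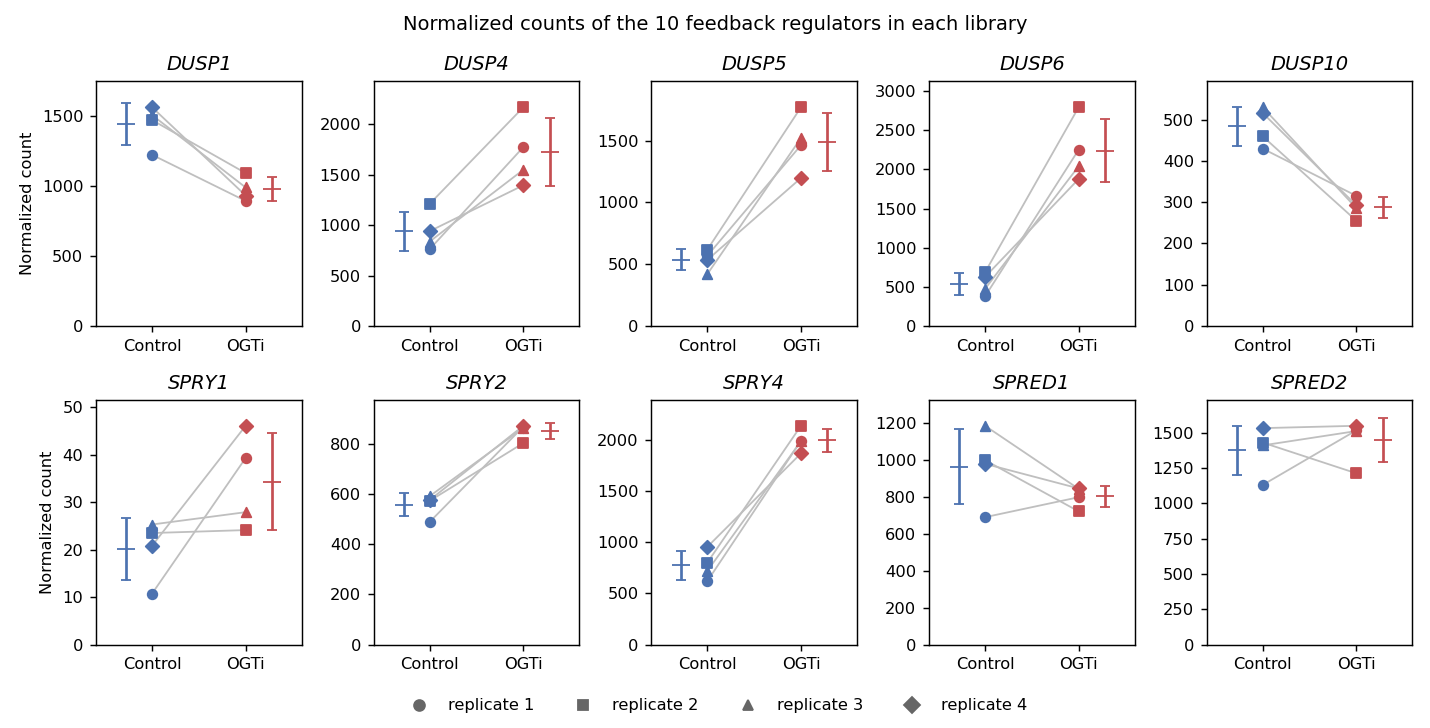
Normalized counts (vertical axis, from 0 in each panel) of the 10 regulators in the 4 control and 4 OGTi libraries, with lines joining libraries of the same replicate number and bars giving the mean and SD. DUSP4, DUSP5, DUSP6, SPRY2 and SPRY4 lie higher in every OGTi library than in any control library, DUSP1 and DUSP10 lie lower, and SPRY1, SPRED1 and SPRED2 overlap between the groups.

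DUSP6 is the cytoplasmic phosphatase that acts with strong preference on ERK, and it had the largest change of the group. The gene lies at chr12:89347235-89352501 on the minus strand (GENCODE release 44, hg38). Its normalized counts were 379, 687, 475 and 627 in control replicates 1 to 4 and 2251, 2793, 2040 and 1877 in the OGTi replicates. Every treated library was thus far above every control library, and replicate 2 was the highest in both groups. The log2 fold change was 2.07 ± 0.13 (SE), or 4.19-fold, with a DESeq2 q of 2.37e-58. Only 0.991% of the genes tested rose by as much.

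DUSP5 and DUSP4 encode nuclear phosphatases, the first selective for ERK and the second active on ERK and other MAP kinases. DUSP5 (chr10:110497907-110511533, plus strand) was at 570, 619, 421 and 536 normalized counts in the controls and at 1464, 1771, 1522 and 1198 under OGTi. Its groups were well separated, with a log2 fold change of 1.47 ± 0.12 and a DESeq2 q of 1.80e-35. DUSP4 was at 761, 1210, 837 and 939 in the controls and at 1771, 2166, 1547 and 1393 under OGTi. The highest DUSP4 control, replicate 2, still lay below the lowest treated library, and replicate 2 was also the highest of the treated libraries for DUSP4, DUSP5, DUSP6 and SPRY4. The DUSP4 log2 fold change was 0.88 ± 0.11 (DESeq2 q = 2.66e-15).

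The 2 phosphatases that fell were DUSP1 and DUSP10. DUSP1 (chr5:172768096-172771195, minus strand) is the immediate-early nuclear phosphatase induced by stress and growth factors, and it acts on p38 and JNK as well as ERK. It was at 1224, 1472, 1508 and 1563 normalized counts in the controls and at 894, 1093, 990 and 933 under OGTi. The groups did not overlap, and DUSP1 was lower in 4 of 4 pairs, with a log2 fold change of -0.56 ± 0.09 (DESeq2 q = 2.16e-08). DUSP10 (chr1:221701424-221742089, minus strand), which prefers JNK and p38 over ERK, was at 430, 459, 530 and 516 in the controls. Under OGTi it was at 315, 255, 286 and 292, again below every control. Its log2 fold change was -0.75 ± 0.14 (DESeq2 q = 2.68e-07). Of the 5 phosphatases, 3 thus rose and 2 fell.

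Sprouty proteins interrupt signalling from receptor tyrosine kinases at the level of adaptors, RAS and RAF. SPRY4 (chr5:142310427-142326455, minus strand) was at 622, 803, 722 and 957 normalized counts in the controls and at 1995, 2143, 1992 and 1872 under OGTi. All treated libraries lay close together and well above the controls, with a log2 fold change of 1.38 ± 0.11 (DESeq2 q = 6.45e-34). SPRY2 (chr13:80335976-80341126, minus strand) was at 489, 573, 592 and 576 in the controls and at 869, 804, 864 and 872 under OGTi. Its rise was smaller than that of SPRY4 (tested below), with no overlap and a log2 fold change of 0.62 ± 0.11 (DESeq2 q = 9.73e-08). SPRY1 (chr4:123396795-123403760, plus strand) was scarce in LX-2 cells, at 10.7, 23.5, 25.3 and 20.8 in the controls and 39.3, 24.1, 27.9 and 46.1 under OGTi. It was higher in 4 of 4 pairs, but the groups overlapped, and its log2 fold change of 0.78 ± 0.47 did not pass the test (DESeq2 q = 0.167). With so few counts the 95% interval ran from -0.14 to 1.71, and a change of the size of SPRY4 lay inside it.

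SPRED proteins bind RAS and the neurofibromin protein and restrain activation of RAF. SPRED1 (chr15:38252836-38357249, plus strand) was at 690, 999, 1185 and 979 normalized counts in the controls and at 798, 721, 843 and 845 under OGTi. Control replicate 1 was below all 4 treated libraries and the other 3 controls were above them, so the groups overlapped. The log2 fold change was -0.24 ± 0.12, lower in 3 of 4 pairs, with a DESeq2 q of 0.0926. Without replicate 1 it was -0.39 and SPRED1 passed the test (DESeq2 q = 0.00361), so that its call rests on this pair. SPRED2 (chr2:65310851-65432637, minus strand) was at 1129, 1429, 1409 and 1531 in the controls and at 1515, 1211, 1510 and 1548 under OGTi. Its groups overlapped, and the log2 fold change of 0.08 ± 0.11 (95% interval -0.13 to 0.28, DESeq2 q = 0.594) turned to -0.04 without replicate 1. Control replicate 1 was the lowest control for 9 of the 10 regulators, DUSP5 being the exception. Its size factor was 1.03, and the libraries, this one included, ranged from 0.870 to 1.09. Whether this library is unusual over all genes was not tested.

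Some pairs of regulators from the same family did not move by equal amounts. Within each library the log2 ratio of the counts of 2 relatives was taken, which needs no scaling for depth, and its mean was compared between groups with a two-sided exact permutation test of 4 against 4 libraries. The smallest p this design allows is 0.02857, and p-values were adjusted over the 6 pairs. DUSP4 over DUSP6 was 0.81 ± 0.17 in the controls and -0.39 ± 0.04 under OGTi (SD), a difference of -1.19 (exact p = 0.02857, adjusted 0.04286). These counts are not scaled for transcript length, so the sign of the ratio does not tell which transcript was more abundant. Per kilobase of the longest coding transcript, the control mean of DUSP6 was below that of DUSP4. With the median coding transcript it was already above. SPRY4 over SPRY2 rose from 0.46 ± 0.20 to 1.23 ± 0.13, a difference of 0.77 with the same exact p of 0.02857, and this and the adjusted value hold for the next ratios too. DUSP5 over DUSP6 went from 0.01 ± 0.39 to -0.59 ± 0.11, a difference of -0.60. This ratio was 0.59 in control replicate 1 and between -0.23 and -0.15 in the other controls, and without replicate 1 the difference was -0.39. SPRED1 over SPRED2 went from -0.53 ± 0.20 to -0.85 ± 0.07, a difference of -0.32, although neither gene passed the test alone.

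The remaining pairs gave no call. DUSP1 over DUSP10, the pair of phosphatases that fell, was 1.57 ± 0.08 in the controls and 1.77 ± 0.25 under OGTi (exact p = 0.2571, adjusted 0.3086). SPRY1 over SPRY2 was -4.83 ± 0.43 and -4.66 ± 0.38 (exact p = 0.5714). Both genes of each of these pairs may still have changed by unequal amounts that 4 libraries a group cannot show. The sign-flip test over the 4 pairs, which keeps the replicate block, cannot go below an exact p of 0.125 and called none of the ratios.

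**Figure D2:**
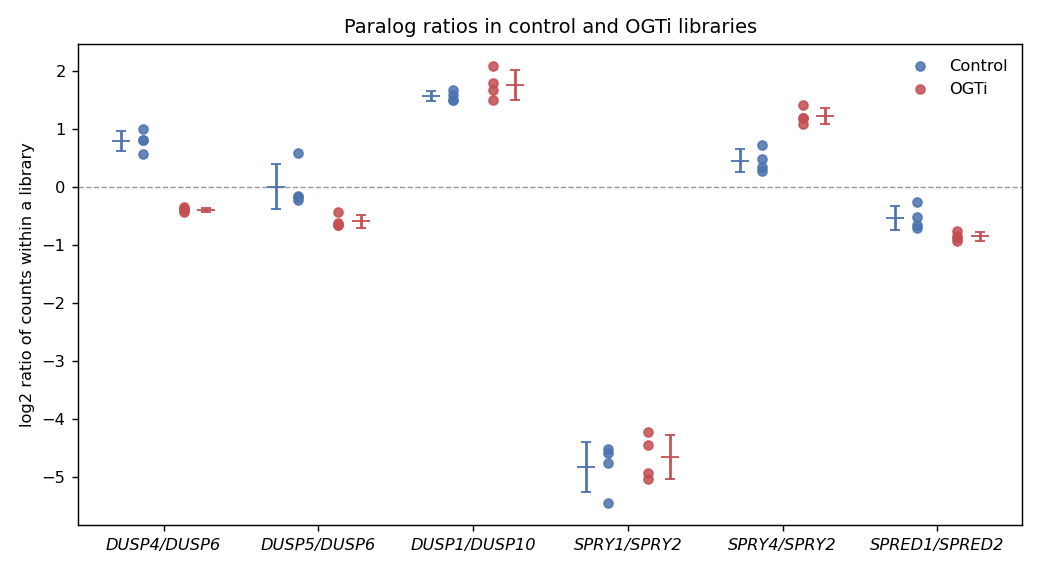
The log2 ratio of the counts of 2 related regulators within each library (vertical axis) for 6 pairs, with points for the 4 control and 4 OGTi libraries and bars for the mean and SD. DUSP4 over DUSP6, DUSP5 over DUSP6, SPRY4 over SPRY2 and SPRED1 over SPRED2 separate the groups, and DUSP1 over DUSP10 and SPRY1 over SPRY2 overlap.

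Levels of different genes were compared as normalized counts per kilobase of the longest coding transcript. In the controls DUSP1 had the highest level of the 10, at 716 ± 74.6 per kilobase, above SPRED2 at 304 ± 38.1 with no overlap of libraries. From SPRED2 down to SPRED1 (132 ± 28.1) each gene overlapped its neighbour in the order, which ran DUSP5, SPRY2, DUSP10, DUSP4, SPRY4 and DUSP6 in between. SPRY1 was last, at 7.70 ± 2.49. Under OGTi DUSP6 came first at 618 ± 110 per kilobase, overlapping DUSP5 at 601 ± 94.9, which in turn overlapped DUSP1 at 486 ± 43.0. SPRY4 followed at 405 ± 22.4, clear of its neighbours on both sides. SPRED2 (320 ± 34.8), SPRY2 (315 ± 12.1) and DUSP4 (310 ± 60.4) formed an overlapping run, and DUSP10 (111 ± 9.59), SPRED1 (110 ± 7.99) and SPRY1 (13.2 ± 3.89) came last. The order of levels depends on the length used. With the median coding transcript, 1033 bases long for SPRED2 against 4519 for the longest, SPRED2 was first in the controls at 1331 ± 167 per kilobase, and DUSP6 was first under OGTi at 1477 ± 263, overlapping SPRED2 at 1400 ± 152.

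The same scale shows how the pool of MAP kinase phosphatase transcripts was made up. The pool held the 9 detected genes of this class, namely the 5 above and DUSP7, DUSP8, DUSP9 and DUSP16. DUSP6 made up 5.47% ± 1.06 of the summed level per kilobase in the controls and 20.4% ± 1.81 under OGTi, and DUSP5 8.06% ± 1.49 and 19.9% ± 1.61. DUSP4 went from 6.22% ± 1.01 to 10.2% ± 1.06. In the other direction DUSP1 went from 26.5% ± 0.987 to 16.2% ± 1.29, DUSP10 from 6.92% ± 0.521 to 3.72% ± 0.542 and DUSP7 from 37.2% ± 1.70 to 25.6% ± 3.73. For each of these 6 genes the control and treated libraries did not overlap. The summed level per kilobase was 2703 ± 224 in the controls and 3006 ± 277 under OGTi, with overlap between the groups. With median transcript lengths the DUSP6 share was 10.9% ± 1.95 and 35.3% ± 2.47, and the summed level, at 3257 ± 305 and 4158 ± 448, no longer overlapped.

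**Figure D3:**
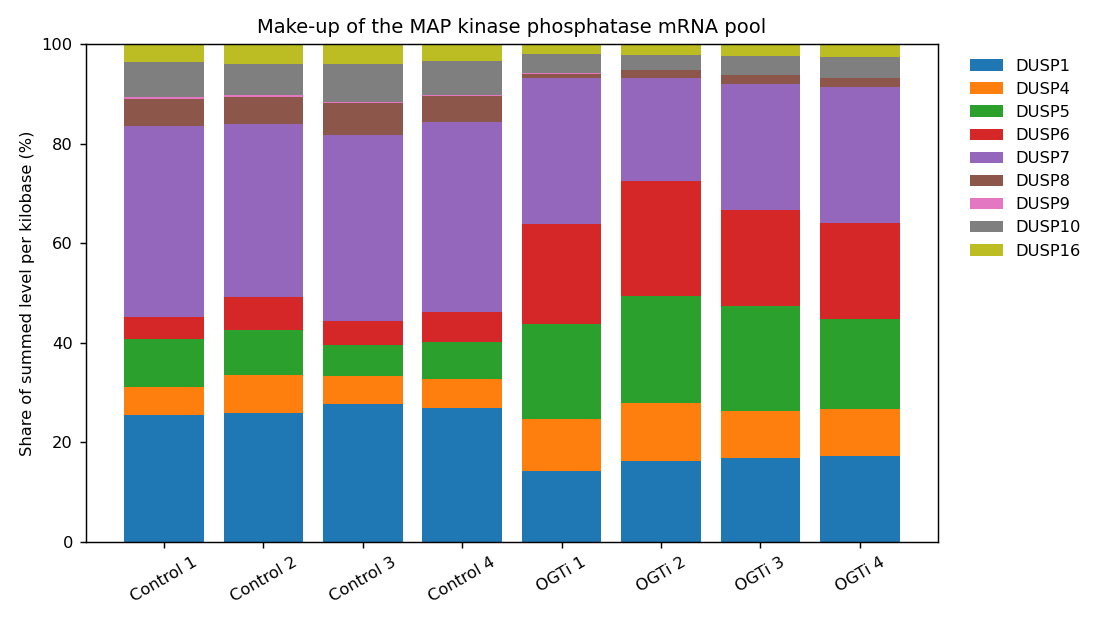
Share of each of 9 MAP kinase phosphatase genes in their summed level per kilobase of transcript (percent, stacked to 100) in the 4 control and 4 OGTi libraries. DUSP6, DUSP5 and DUSP4 fill more of every OGTi bar than of any control bar, and DUSP1, DUSP7 and DUSP10 fill less.

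The 4 other MAP kinase phosphatases that were tested all went down. Of the 5 listed, DUSP2 was under the filter on low counts, and DUSP7, DUSP8, DUSP9 and DUSP16 were all lower under OGTi. The median log2 fold change was -1.16 over these 4, or -0.59 over all 5 with no filter on low counts. Among all genes tested, 22.7% were called higher and 24.0% lower. DUSP8, which acts on JNK and p38, fell from 728 ± 80.4 to 224 ± 62.7 normalized counts (log2 fold change -1.74 ± 0.15, DESeq2 q = 2.50e-31). DUSP16, a JNK phosphatase, changed by -0.59 ± 0.11, and DUSP7, a cytoplasmic ERK phosphatase related to DUSP6, by -0.40 ± 0.10 (DESeq2 q = 5.52e-07 and 0.000155). Thus DUSP7 fell where DUSP6 rose, and not all ERK phosphatases went up. DUSP9, named after its values were seen, was at only 19.9 ± 6.42 and 4.46 ± 5.01. The atypical dual-specificity phosphatases, which lack the domain that docks MAP kinases, were mostly not called. Of 9 tested, DUSP22 rose (0.32 ± 0.12, DESeq2 q = 0.0169), DUSP12 fell (-0.30 ± 0.13, DESeq2 q = 0.0402) and 7 were not called, among them DUSP3 (-0.05 ± 0.07) and DUSP14 (0.14 ± 0.10). Named after their values were seen, DUSP19 (-1.05 ± 0.50, DESeq2 q = 0.0739) was scarce and lower in each pair, and DUSP28 (0.49 ± 0.22, DESeq2 q = 0.0568) was higher with no overlap. The DUSP12 call was lost whichever replicate was left out, and the DUSP22 call without replicate 1, 2 or 4. The median over the 9 was 0.14, and 0.044 without replicate 3.

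**Figure D4:**
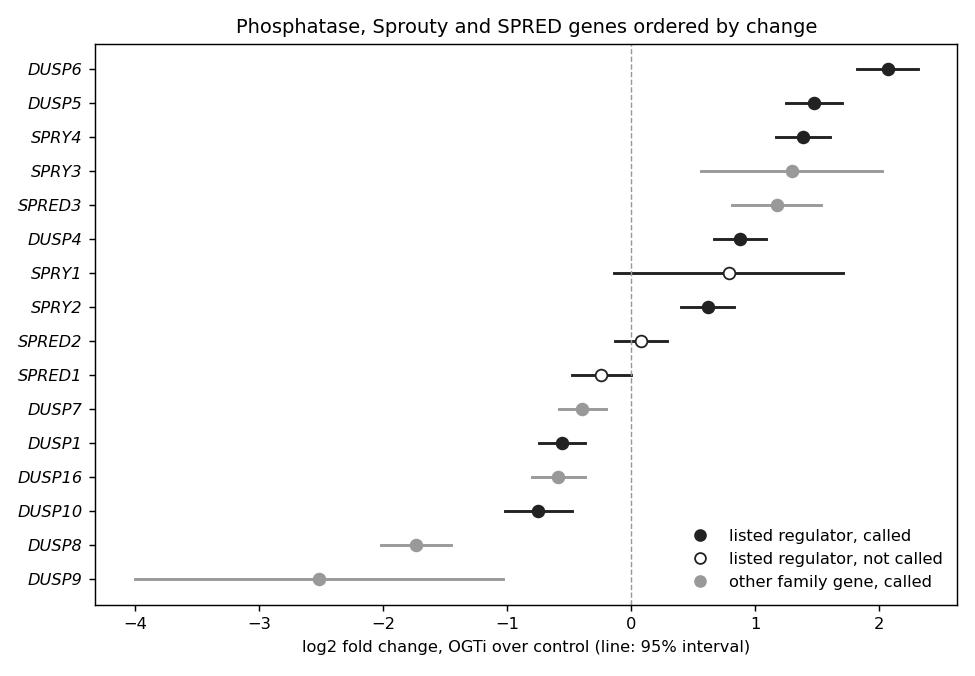
Log2 fold change of OGTi over control (horizontal axis, lines are 95% intervals) for the 10 regulators (black, open where not called) and the other MAP kinase phosphatase, Sprouty and SPRED genes (grey). DUSP6 at 2.07 has the largest rise, DUSP8 and DUSP9 have the largest falls, and SPRY3 and SPRED3 rose beside SPRY4.

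SPRY3 and SPRED3 complete the Sprouty and SPRED families. SPRED3 rose from 195 ± 45.3 to 436 ± 70.6 normalized counts (log2 fold change 1.17 ± 0.18, DESeq2 q = 1.26e-09), unlike SPRED1 and SPRED2. SPRY3, named after its values were seen, was at 29.0 ± 12.4 in the controls and 68.3 ± 10.5 under OGTi (DESeq2 q = 0.00167). Both belong to a list of 11 other inhibitors of receptors, RAS or RAF, of which 5 rose, 1 fell and 5 were not called, with a median of 0.03. Over all genes tested, 46.6% were called, 22.7% higher and 24.0% lower. RASA1, a GTPase-activating protein for RAS, rose by 0.42 ± 0.11, and NF1, which encodes neurofibromin, the partner of SPRED proteins, changed by -0.36 ± 0.10 (DESeq2 q = 0.000613 and 0.000707). PEBP1, an inhibitor of RAF, and CBL, a ubiquitin ligase for receptors, did not pass the test (log2 fold changes -0.04 ± 0.07 and -0.04 ± 0.09).

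Components of the cascade that these regulators restrain went down more often than up. Of 18 genes from adaptors to ERK, 2 rose, 9 fell and 7 were not called, with a median log2 fold change of -0.21. For all genes tested the shares were 22.7% higher and 24.0% lower. NRAS fell from 2462 ± 415 to 1433 ± 265 normalized counts (-0.78 ± 0.08, DESeq2 q = 3.85e-22), and ARAF changed by -0.55 ± 0.08. MAPK3, which encodes an ERK and was named after its values were seen, changed by -0.60 ± 0.09 (DESeq2 q = 2.45e-11). MAP2K2, which encodes a MEK, and GRB2, an adaptor, were not called (-0.17 ± 0.08 and -0.01 ± 0.07). Without replicate 3, though, MAP2K2 was called lower (DESeq2 q = 0.00948).

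Genes widely used as readouts of ERK, the 10 regulators aside, went both ways. Of 12 such genes 7 rose, 3 fell and 2 were not called. Their median log2 fold change was 0.70, and so was that of the 10 regulators. Leaving out each replicate moved the first median between 0.54 and 0.79 and that of the regulators between 0.50 and 0.78. The shares over all genes tested were 22.7% higher and 24.0% lower. ETV1, an ETS factor, rose from 98.9 ± 37.9 to 466 ± 59.7 normalized counts (2.29 ± 0.20, DESeq2 q = 8.11e-30). PHLDA1 rose by 0.95 ± 0.08 and the receptor gene EPHA2 by 0.78 ± 0.08 (DESeq2 q = 1.28e-28 and 4.76e-21). FOSL1, an AP-1 component, and PLAUR, the urokinase receptor, were not called (0.08 ± 0.07 and 0.40 ± 0.24). PLAUR was called higher without the replicate block (DESeq2 q = 0.0122), in both edgeR tests and without replicate 4. Among the genes that fell was the immediate-early factor EGR1, named after its values were seen, which went from 3088 ± 227 to 1528 ± 516 (-1.07 ± 0.23, DESeq2 q = 1.07e-05). Also lower were ETV4 (-0.58 ± 0.18, DESeq2 q = 0.00314) and EPHA4 (-0.34 ± 0.15, DESeq2 q = 0.0403), named in the same way. The immediate-early genes FOS (1.07 ± 0.29, DESeq2 q = 0.000668) and IER3 (0.62 ± 0.10, DESeq2 q = 8.39e-10), named in the same way, rose with no overlap. So did ETV5 (1.305 ± 0.22, DESeq2 q = 2.26e-08) and CCND1 (0.80 ± 0.29, DESeq2 q = 0.0143), also named after their values were seen.

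The JNK and p38 arms, which DUSP1, DUSP8, DUSP10 and DUSP16 restrain, showed no common direction. Of 11 kinases 2 rose, 2 fell and 7 were not called, with a median of 0.03. Among all genes tested, 46.6% were called. MAP2K3, which activates p38, rose by 0.48 ± 0.08, while MAP2K7, which activates JNK, changed by -0.37 ± 0.08 and the p38 gene MAPK11 by -0.80 ± 0.20 (DESeq2 q = 7.15e-09, 1.37e-05 and 0.000318). The main JNK and p38 genes MAPK9 and MAPK14 did not pass the test (0.03 ± 0.08 and 0.04 ± 0.08).

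**Figure D5:**
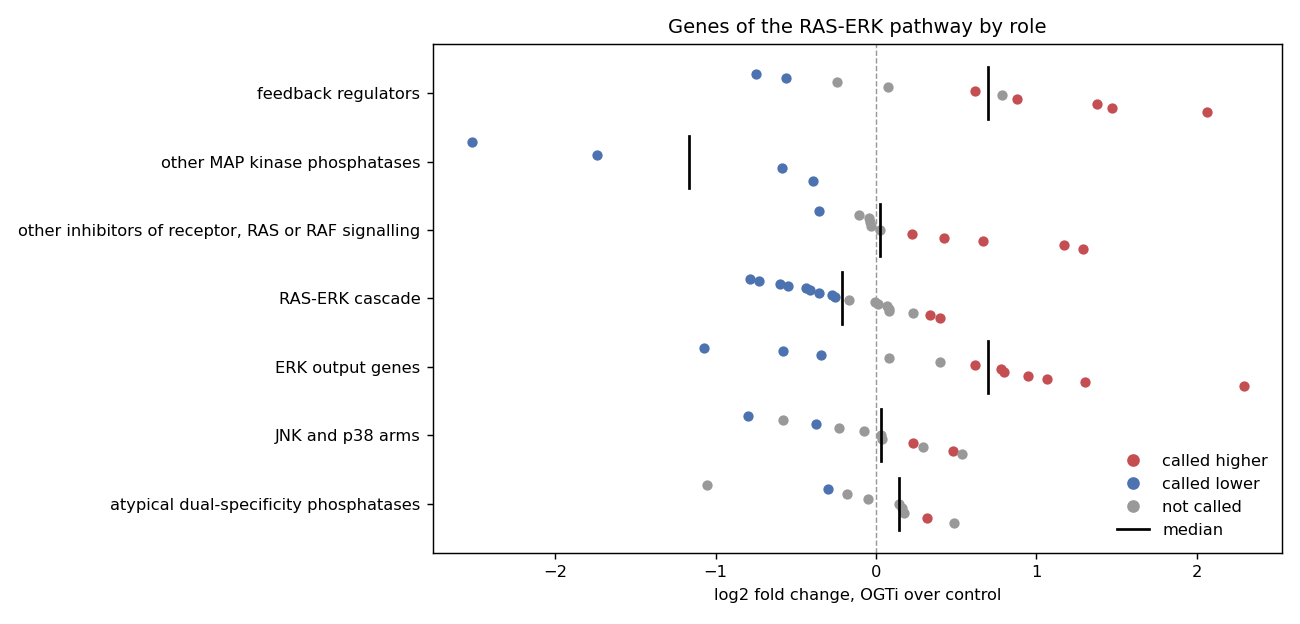
Log2 fold change of OGTi over control (horizontal axis) for each gene of the 10 feedback regulators and 6 lists of related genes, coloured by call, with a bar at the median of each list. The regulators and the ERK output genes have medians of 0.70, the 4 tested other MAP kinase phosphatases have the lowest median at -1.16 (-0.59 over 5 genes with no filter on low counts), and the cascade itself lies at -0.21.

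The genes whose levels tracked the most changed regulators most closely were sought over the 8 libraries, among the 10993 genes that averaged 100 or more normalized counts. For DUSP6 these were TSPAN5, PVR and PHC2, with Pearson r of 0.995, 0.992 and 0.992. Those nearest to DUSP5 were SPECC1, SDCBP2 and DEDD2 (r = 0.996, 0.995 and 0.994). All 8 libraries share the split between control and OGTi, and 966 genes had an r over 0.9 with DUSP6 and 1124 with DUSP5. The likeness is therefore a description of these libraries and no sign of a link between the genes.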

How the data were processed

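Messenger RNA was read from both ends in 8 libraries. According to the study's methods and the submitters' processing notes, the authors aligned reads to hg38 with Bowtie2 2.3.5.1 and counted them per gene, by strand, with RSEM 1.3.1. The deposited values are RSEM's expected counts: a read with several alignments is divided among genes by estimated weights. They are not scaled for depth, and 12.9% to 16.3% of values per library were fractional. The authors also deposited a table of DESeq2 1.36.0 fold changes and p-values, which was not used.

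Expected counts were rounded, and the 14895 genes with a total of at least 10 were tested with DESeq2 1.42.0 (R 4.3.3), median-of-ratios size factors and replicate number as a block, following the study's methods. Across 11702 genes, deviations from group means correlated between libraries of the same number with r of 0.38, 0.30, 0.14 and 0.27. Values for libraries of different number are not given here, so these r do not test the pairing. Dividing a count by its library's size factor gave the normalized count. Ratios of relatives used a pseudocount of 0.5 and scipy 1.17.1. Transcript lengths and positions came from GENCODE 44, and promoters from RefSeq.

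The 10 genes and the 6 lists were chosen with earlier results of these data known. Named from each list were the 3 called genes with the largest absolute Wald statistic and up to 2 uncalled genes with a mean over 1000 normalized counts, and for the 2 regulators with the largest statistic the 3 genes nearest in profile. Some genes that this rule names are not reported here. Any other gene is said to have been named after its values were seen. Alternatives were edgeR 4.0.16 quasi-likelihood tests with TMM factors, with and without the block, DESeq2 without the block or with TMM size factors, other filters, a pseudocount of 5, median transcript lengths and leaving out each replicate.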

Additional observations from a re-analysis of the deposited data

Results flagged for a closer look

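Some libraries stood apart from the other 3 of their group, by the gap to the nearest library as a share of the group's range. Of 90 groups of 4 looked at, 6 passed the 95% critical value, and chance alone gives about 1 in 20, or 4.5. OGTi replicate 2 was low for SPRY2, at 803.6 normalized counts against 864 to 872 in the other treated libraries, and for SPRED2, at 1211 against 1510.3 to 1548. The same library was low for CBL (2344 against 2829 to 2887) and for MAPK14 (1571 against 1688 to 1698). SPRY2 still lay above every control in that library. The log2 ratio of DUSP5 over DUSP6 stood apart in both groups. In control replicate 1, where DUSP6 was at its lowest and DUSP5 was not, it was 0.59, against -0.23 to -0.15 in the other controls. In OGTi replicate 3 it was -0.42, against -0.66 to -0.62.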

How the results depend on the processing

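Of 100 values for the 10 regulators under the alternatives, 98 kept their direction and side of the threshold, both exceptions being without replicate 1 (SPRED1 called at -0.39, and SPRED2 reversed, from -0.039 to 0.18 over the replicates left out). Rises stayed at 5 and falls at 2 or 3, and q stayed at 0.00036 or lower for the 7 called genes. The replicate block changed no call of a regulator, and without it 2 atypical phosphatases were called in each direction, as with both edgeR tests (with the stricter filter, 2 higher). Leaving out each replicate gave 0 to 1 atypical phosphatases higher and 0 lower, 3 to 4 other inhibitors higher, 1 to 2 ERK output genes lower and 1 to 2 JNK and p38 genes higher, all from fewer libraries. It also reversed small values, namely the median of the other inhibitors (-0.020 to 0.11), that of the JNK and p38 arms (-0.026 to 0.056), CBL (-0.14 to 0.012), GRB2 (-0.022 to 0.017) and MAPK9 (-0.014 to 0.070). The exact sign-flip test over the replicate pairs (block) gave an adjusted p of 0.1875 for the ratio differences of -1.19, -0.60, 0.77 and -0.32, since 4 pairs cannot reach the threshold. Nor can 3 against 3 libraries, where these differences ranged from -1.25 to -1.14 (DUSP4 over DUSP6), -0.71 to -0.39 (DUSP5 over DUSP6), 0.71 to 0.90 (SPRY4 over SPRY2), -0.35 to -0.22 (SPRED1 over SPRED2) and -0.11 to 0.37 (SPRY1 over SPRY2). The median of the other MAP kinase phosphatases was -0.59 with no filter on low counts, which brings in DUSP2, and that of the atypical ones 0.044 without replicate 3. Called genes over the whole table ranged from 2416 to 3481 higher and from 2670 to 3593 lower. Depth limits SPRY1, with 11 to 46 counts per library.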
